A study of Mus musculus with 30 samples.

Results

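The 10 genes described here encode the immunoproteasome and the core of MHC class I antigen presentation: Psmb8, Psmb9, Psmb10, Tap1, Tap2, Tapbp, B2m, H2-K1, H2-D1 and Nlrc5. They were taken by gene symbol from 55487 genes in one count table and 52630 in the other, 52177 of which were in both, and each symbol matched 1 gene in each table. All 10 passed the filter on low counts in both tables. They were chosen by name and not by a threshold, but with earlier results on their counts across media, passages and time in these same libraries known, so their levels and fold changes are given as a description without a test.

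Most cells degrade cytosolic proteins with the constitutive 20S proteasome, whose catalytic subunits are Psmb5, Psmb6 and Psmb7. Interferon gamma induces the alternative subunits Psmb8 (LMP7), Psmb9 (LMP2) and Psmb10 (MECL-1), which replace these in the immunoproteasome and shift the cut towards peptides that fit class I molecules. The transporter formed by Tap1 and Tap2 brings the peptides into the endoplasmic reticulum, tapasin (Tapbp) bridges it to empty class I molecules, and the heavy chains H2-K1 and H2-D1 reach the surface bound to beta-2 microglobulin (B2m). Nlrc5 is a transactivator that acts at class I promoters. Embryonic stem cells (ESCs) are known for low surface class I.

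E14tg2a mouse ESCs, an established line, were used throughout, and all media contained LIF. Serum/LIF (SL) supports a mixed pluripotent culture. EMM is Serum/LIF in which galactose stands in for glucose and pyruvate, and in 2i/LIF (2iL) inhibitors of GSK3 and MEK are added to LIF. In the passage experiment cells were held for 10 or 20 passages (P10, P20) in SL, EMM or 2iL, with 3 libraries in each of 6 groups and 6944904 to 27912928 counts per library. In the time course cells in SL (0 h, for which the labels also give 24 h of Serum/LIF) were compared with cells moved to EMM for 3, 9 or 24 h, with 3 libraries in each of 4 groups and 24074132 to 35301962 counts. Every culture was of 1 line, and whether P10 and P20 came from the same cultures was not given in the sources used here. Levels are normalized counts, that is counts brought to the average effective depth of an experiment's libraries, and comparisons between genes use CPM per kilobase of exon (CPM per kb). Values after ± are SDs over 3 libraries for levels and standard errors of the fit for log2 fold changes.

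The ESC markers Pou5f1, Sox2, Nanog, Esrrb, Zfp42, Dppa5a, Tdgf1 and Utf1 were found in all groups, with summed levels of 4320 to 8120 CPM over the 18 passage libraries. Markers of immune cells summed to 1.53 to 4.97 CPM over 10 genes, of which 1 to 5 had no count in a group. In these bulk samples, fewer cells that express a gene and less RNA per cell cannot be told apart.

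Of the 10 genes, 7 lie on chromosome 17 of GRCm38 (mm10). Psmb9 (34181987 to 34187764, minus strand), Tap1 (34187553 to 34197225, plus), Psmb8 (34197721 to 34201454, plus) and Tap2 (34203527 to 34216321, plus) stand next to each other in the class II region of the MHC. Psmb9 and Tap1 are head to head, and 225 bases separate their RefSeq start sites, while their GENCODE M21 models overlap by 212 bases. Genes on the opposite strand also overlap Psmb8 (Gm20496, 2139 bases), Tap2 (Gm20496, 1923 bases, and Gm15821, 3148 bases), Psmb10 (Gm16156, over its whole 2710 bases), Tapbp (Gm19412, 1207 bases), Nlrc5 (9330175E14Rik, 748 bases) and B2m (Patl2, over its whole 5398 bases). Whether the counting used strand was not given in the sources used here, and without strand the reads of such pairs cannot be told apart. Tapbp (33915899 to 33929292, plus) and H2-K1 (33996017 to 34000347, minus) lie to one side and H2-D1 (35262730 to 35267499, plus) to the other. B2m is on chromosome 2 (122147686 to 122153083, plus). Nlrc5 (94434356 to 94527272, plus) and Psmb10 (105935735 to 105938444, minus) are both on chromosome 8.

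At P10, both EMM and 2iL held far less RNA of the immunoproteasome subunits and of the peptide transporter than SL, and both class I heavy chains were lower as well. The deepest difference was in Psmb8, which had no count in the 3 P10 EMM libraries and none in the 3 P10 2iL libraries. B2m went against the rest in EMM, where it was higher than in SL. Of the 10 genes, the libraries of 9 lay wholly below those of SL in P10 EMM and 1 wholly above, and in P10 2iL 9 lay below and 1 overlapped. Over all tested genes, 29.4% lay wholly below SL in P10 EMM and 28.8% above, and 32.7% lay below in P10 2iL. The median log2 fold change of the 10 genes was -1.96 in EMM and -2.92 in 2iL, with medians over all tested genes of 0.012 and 0.018. Both comparisons share the SL libraries.

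**Figure D1:**
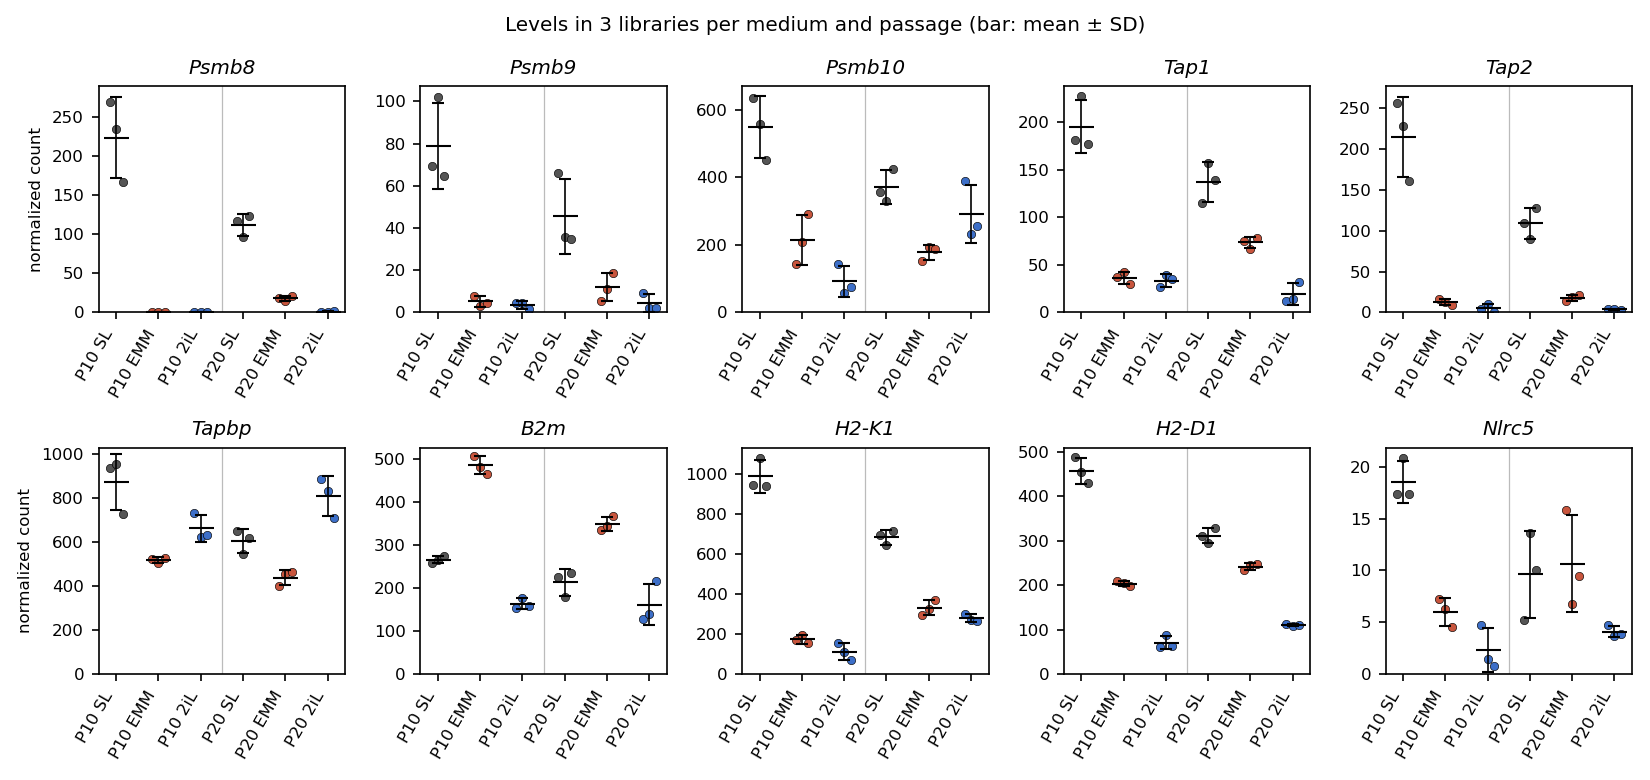
Normalized counts of the 10 genes in each of the 18 passage libraries (y axes, linear from 0) by passage and medium (x axes), with the mean ± SD of 3 libraries as a bar. Psmb8 stood at 0 in all P10 EMM and P10 2iL libraries, and B2m was higher in EMM than in SL at both passages.

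Psmb8, the chymotrypsin-like subunit, was at 269, 234 and 167 normalized counts in the 3 P10 SL libraries and at 0 in every P10 EMM and P10 2iL library. Set against a floor of 3 counts per library, this was at least 48-fold lower in P10 EMM and at least 58.2-fold lower in P10 2iL. At P20 it was at 117, 96.4 and 123 in SL and at 18.6, 15.1 and 21 in EMM, a log2 fold change of -2.61 ± 0.26. The P20 EMM libraries were therefore all above the P10 EMM libraries, at least 3.92-fold, and all below SL of either passage. In P20 2iL the values were 0, 0.739 and 1.92, from 3 counts in all, and the ratio of SL to 2iL was 103 with a 95% interval of 34.9 to 501 (exact binomial, counting error only).

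Psmb9, the subunit that takes the place of Psmb6, was at 69.4, 102 and 64.8 in P10 SL and at 8.04, 3.12 and 4.58 in P10 EMM, a log2 fold change of -3.74 ± 0.51. In P10 2iL it was at 4.71, 4.36 and 1.63. At P20 the means were 45.6 ± 17.8 in SL, 11.9 ± 6.67 in EMM and 4.51 ± 4.24 in 2iL. At each passage all SL libraries lay above all others, and EMM and 2iL overlapped.

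Psmb10, which replaces Psmb7, kept more of its level. It was at 636, 558 and 452 in P10 SL, 143, 209 and 291 in P10 EMM and 144, 58.1 and 75.8 in P10 2iL. The P20 values were 357, 329 and 426 in SL, 154, 194 and 187 in EMM and 390, 231 and 255 in 2iL. EMM was thus wholly below SL at both passages, with log2 fold changes of -1.41 ± 0.26 and -1.04 ± 0.26. P20 2iL overlapped SL and lay wholly above P20 EMM. In P20 2iL against SL the genes of chromosome 8 as a whole were shifted, with a median log2 fold change of 0.45 over 833 genes, and Psmb10 moved from -0.38 to -0.82 once that median was taken off. For P20 EMM against 2iL the median of chromosome 8 was -0.29, and Psmb10 moved from -0.67 to -0.38. The 3 constitutive counterparts did not pass an adjusted p of 0.01 in P10 EMM, with log2 fold changes of 0.16 ± 0.15 for Psmb5, -0.16 ± 0.11 for Psmb6 and 0.08 ± 0.12 for Psmb7.

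Of the peptide-loading genes, Tap2 differed most between media. It was at 256, 228 and 161 in P10 SL, 16.1, 12.5 and 9.16 in P10 EMM and 4.71, 10.2 and 0 in P10 2iL. The P20 libraries held 109, 90 and 128 in SL, 13.9, 19 and 21 in EMM and 4.7, 3.69 and 2.87 in 2iL. The SL libraries stood apart from the others at both passages, with log2 fold changes in EMM of -3.99 ± 0.39 at P10 and -2.57 ± 0.35 at P20. In 2iL they were -5.68 ± 0.46 and -4.88 ± 0.48.

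Tap1, the partner of Tap2, was less depleted. It was at 181, 227 and 177 in P10 SL, 37.8, 42.1 and 29.8 in P10 EMM and 26.7, 39.2 and 35 in P10 2iL, so that EMM and 2iL overlapped at P10. At P20 it was at 116, 157 and 139 in SL, 75.3, 67.1 and 78.3 in EMM and 11.8, 14 and 32.6 in 2iL, and EMM and 2iL no longer overlapped. The log2 fold change of EMM against SL was -2.39 ± 0.25 at P10 and -0.90 ± 0.22 at P20. Tap1 and its head-to-head neighbour Psmb9 both had their highest levels in P10 SL, and their level in P10 SL was 2.28 and 1.38 CPM per kb.

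Tapbp varied least. Its means were 873 ± 126 in P10 SL, 518 ± 13.1 in P10 EMM and 661 ± 59.7 in P10 2iL, and 604 ± 52.5, 438 ± 33.2 and 809 ± 91.3 at P20. EMM was wholly below SL at both passages, with log2 fold changes of -0.76 ± 0.11 and -0.46 ± 0.11. P20 2iL was wholly above SL, at 0.42 ± 0.11, against -0.40 ± 0.11 at P10, where the libraries overlapped. The Tapbp model shares 3422 bases with Zbtb22 on the same strand.

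H2-K1, one of the classical heavy chains, was at 943, 1080 and 936 in P10 SL, 169.6, 195 and 154 in P10 EMM and 154, 109 and 70 in P10 2iL. At P20 it was at 692, 641 and 713 in SL, 295, 326 and 369.9 in EMM and 301, 269.7 and 264 in 2iL. SL was the highest medium at both passages and EMM and 2iL overlapped at each. The log2 fold change of EMM against SL was -2.51 ± 0.17 at P10 and -1.04 ± 0.16 at P20. In 2iL it was -3.21 ± 0.18 and -1.30 ± 0.16.

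H2-D1, the other classical heavy chain, was at 488, 454 and 429 in P10 SL, 209, 204 and 197 in P10 EMM and 61.2, 87.1 and 61.9 in P10 2iL. The P20 values were 311, 294 and 328 in SL, 234, 244 and 247 in EMM and 113, 109 and 110.2 in 2iL. None of the 3 media overlapped at either passage, and the order was SL, EMM, 2iL. Heavy chain genes are close copies of each other, and reads of one may have been counted for another. Summed over 29 annotated class I heavy chain genes, the log2 fold change was -1.17 ± 0.07 in P10 EMM and -0.62 ± 0.07 in P20 EMM. In 2iL the sum changed by -1.56 ± 0.07 at P10 and -0.56 ± 0.07 at P20. H2-M5 alone held 60.9% of the summed counts in P20 2iL and 21.5% in P20 EMM, and 53.8% in P10 EMM against 12.3% in P10 SL. Without it the sum changed by -2.12 ± 0.10 in P10 EMM and -0.45 ± 0.10 in P20 EMM against SL, and by -2.52 ± 0.10 in P10 2iL and -1.39 ± 0.10 in P20 2iL. Between P20 EMM and P20 2iL the sum was -0.06 ± 0.07 with H2-M5 and 0.93 ± 0.10 without it, and H2-D1 alone was 1.13 ± 0.12.

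B2m, the light chain shared by all these heavy chains, showed another order of media. It was at 258, 265 and 273 in P10 SL, 506, 482 and 465 in P10 EMM and 154, 177 and 157 in P10 2iL, with no overlap between media. At P20 it was at 225, 178 and 235 in SL, 335, 344 and 367 in EMM and 127, 139.6 and 216 in 2iL, and only EMM stood apart. The log2 fold change of EMM against SL was 0.87 ± 0.14 at P10 and 0.72 ± 0.14 at P20. As a level per length, B2m went from 19.8 CPM per kb in P10 SL to 36.1 in P10 EMM, while H2-K1 went from 21.5 to 3.77 and H2-D1 from 11.4 to 5.05. In P10 SL, B2m and H2-K1 were at similar levels, and in P10 EMM B2m was the highest of the 10 genes. The B2m locus lies within the Patl2 gene on the opposite strand.

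Because H2-K1 and B2m parted in EMM, the bases upstream of both are shown. They come from RefSeq promoter windows (GRCm38.p6), which matched 8 of the 10 genes (not Tap2 and Nlrc5), and run 5′ to 3′ on the strand of the gene up to the first annotated exon. Capitals mark matches, on either strand, to an interferon-stimulated response element (GAAA, any 2 bases, GAAA), a gamma-activated site (TTCNNNGAA), a kappaB-like site (GGG, any 2 bases, TTCCC) or a CCAAT box, and no 2 matches overlap in these windows.
H2-K1, chr17:34000348-34000597, minus strand: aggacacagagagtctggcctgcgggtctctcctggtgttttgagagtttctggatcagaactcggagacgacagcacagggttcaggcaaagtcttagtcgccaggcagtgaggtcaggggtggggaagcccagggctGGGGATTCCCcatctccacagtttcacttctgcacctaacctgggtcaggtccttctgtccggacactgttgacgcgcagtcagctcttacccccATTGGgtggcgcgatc
B2m, chr2:122147437-122147685, plus strand: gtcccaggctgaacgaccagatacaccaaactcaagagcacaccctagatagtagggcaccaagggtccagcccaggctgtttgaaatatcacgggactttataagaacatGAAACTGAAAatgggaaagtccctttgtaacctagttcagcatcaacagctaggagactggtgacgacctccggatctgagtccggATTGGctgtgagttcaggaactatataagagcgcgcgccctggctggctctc
The H2-K1 window held a kappaB-like match, GGGGATTCCC, and a CCAAT box read on the other strand. The B2m window held a response element match, GAAACTGAAA, and also a CCAAT box on the other strand. Among 32851 RefSeq windows of 250 upstream bases, 2.98% held the response element, 7.02% the gamma-activated site, 1.53% the kappaB-like site and 33.9% a CCAAT box. Of the 8 genes with a window, 1 held the response element (B2m), 1 the gamma-activated site (Psmb8), 2 the kappaB-like site (H2-K1 and H2-D1) and 6 a CCAAT box. Only exact matches to these patterns were sought. A variant of a site stays unmarked, so a missing match does not show that H2-K1 or B2m lacks that kind of site.

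Nlrc5 was per length the lowest of the 10 in every group except P10 EMM, P10 2iL and P20 2iL, where Psmb8 was lower, with 0.14 CPM per kb in P10 SL. It was at 17.4, 20.8 and 17.4 normalized counts in P10 SL, 7.23, 6.23 and 4.58 in P10 EMM and 4.71, 1.45 and 0.815 in P10 2iL. The P10 SL libraries lay above the others, and the log2 fold change was -1.54 ± 0.48 in EMM. After 20 passages it was at 5.25, 13.6 and 10 in SL, 15.8, 6.71 and 9.43 in EMM and 4.7, 3.69 and 3.83 in 2iL. SL and EMM overlapped at P20, with a log2 fold change of 0.08 ± 0.44, and at this depth no difference was detectable. Like Psmb10 it lies on chromosome 8, and its value in P20 2iL against SL went from -1.29 to -1.74 once the median of that chromosome was taken off.

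**Figure D2:**
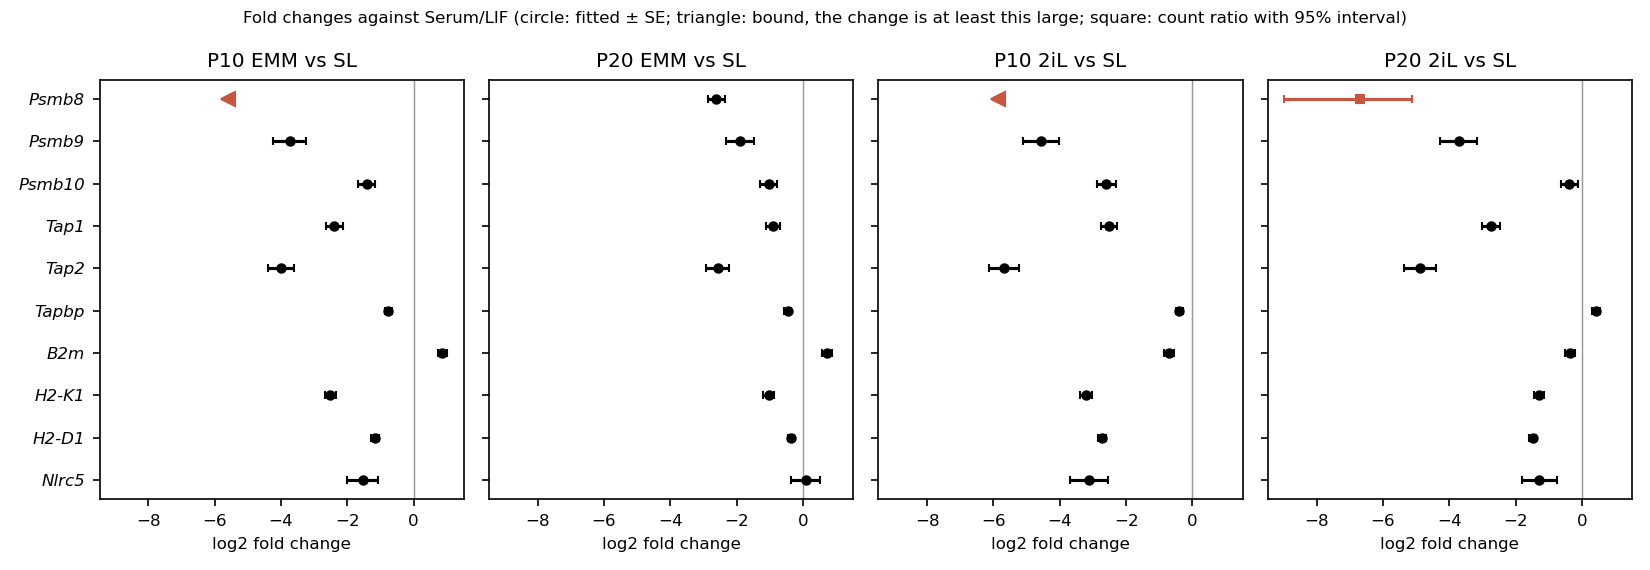
Log2 fold change of each gene (rows) against Serum/LIF for EMM and 2i/LIF at P10 and P20 (panels). Circles are fitted values ± SE, the triangles of Psmb8 are bounds (at least 48-fold and 58.2-fold lower) and its square is a ratio of counts with a 95% interval. B2m lies to the right of 0 in EMM and to the left in 2i/LIF.

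Set against each other, EMM and 2iL differed in fewer of the 10 genes at P10 than either differed from SL. At P10, B2m and H2-D1 lay wholly above 2iL in EMM, Tapbp wholly below, and the other 7 overlapped or were both at 0 (29.1% of all tested genes lay wholly above and 29% below). At P20, 6 lay wholly above in EMM (Psmb8, Tap1, Tap2, B2m, H2-D1 and Nlrc5) and Psmb10 (on the shifted chromosome 8) and Tapbp wholly below, against 34.6% and 30.4% of all tested genes. The log2 fold change of EMM against 2iL was 1.58 ± 0.15 at P10 and 1.09 ± 0.15 at P20 for B2m, and 0.13 ± 0.28 and 1.84 ± 0.27 for Tap1. Psmb8 in P20 EMM was at a ratio of 16.9 to P20 2iL, with a 95% interval of 5.56 to 83.6.

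Between P10 and P20 most of the 10 genes fell in SL, while their counts in EMM and 2iL were nearer the shares of all tested genes. In SL, 9 of the 10 were lower at P20 with no overlap between libraries (all but Psmb9), with a median log2 fold change of -0.57 (over all tested genes, 20.4% were wholly lower). In EMM, 4 were wholly higher (Psmb8, Tap1, H2-K1 and H2-D1) and 2 wholly lower (B2m and Tapbp), and over all tested genes 30.6% and 26.3% were. In 2iL, 3 were wholly higher (Psmb10, H2-K1 and H2-D1) and none wholly lower, against 20% and 22.2% of all tested genes.

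Of the 10 genes, only H2-K1 and H2-D1 were wholly lower at P20 in SL and wholly higher in EMM and in 2iL. The log2 fold change of H2-K1 from P10 to P20 was -0.53 ± 0.15 in SL, 0.93 ± 0.17 in EMM and 1.37 ± 0.19 in 2iL. For Tap1 it was -0.50 ± 0.22, 0.98 ± 0.26 and -0.72 ± 0.30, with overlapping libraries in 2iL. For Psmb10 it was -0.57 ± 0.25, -0.21 ± 0.27 and 1.65 ± 0.29, and chromosome 8 as a whole was at 0.32 in the last of these. The log2 fold change of EMM against SL lay nearer 0 at P20 than at P10 in all 10 genes (Psmb8 by its bound), though for B2m and Psmb10 the values of both passages were within their errors of each other. At P20, 8 of the 10 lay wholly below SL in EMM and B2m above (29.5% and 30% of all tested genes), and in 2iL 7 lay below and Tapbp above (31.3% and 28.3%). The median over the 10 genes was -0.97 at P20 in EMM and -1.4 in 2iL. With a filter of 10 counts in every library, which kept 5 of the 10, the medians were -0.51 and -0.46.

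In the time course a like division was present at 24 h. By 24 h, 8 of the 10 genes lay wholly below 0 h, B2m wholly above, and Tapbp overlapped (29.6% of all tested genes lay wholly below and 29.6% above). At 9 h, 7 lay wholly below and B2m above (28.6% and 27%). At 3 h, 3 lay wholly below (Psmb10, Tap1 and Tap2) and 2 wholly above (B2m and Nlrc5), against 29.4% and 27.2% of all tested genes. The median log2 fold change of the 10 genes was -0.19 at 3 h, -0.63 at 9 h and -0.84 at 24 h. The 3 comparisons share the 0 h libraries.

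Of the transporter genes, Tap2 was at 96.9, 73 and 102 at 0 h, 57.6, 41.7 and 38.9 at 3 h, 29.1, 37.9 and 31.1 at 9 h and 15.5, 26.2 and 26.7 at 24 h. Its log2 fold change was -0.98 ± 0.19 at 3 h and -1.99 ± 0.22 at 24 h. Tap1 was at 278, 264 and 263 at 0 h, 156, 180.2 and 148 at 3 h, 144, 143 and 147 at 9 h and 175, 154 and 159 at 24 h, so that 9 h lay wholly below 3 h and 24 h overlapped 3 h. Its log2 fold change was -0.73 ± 0.09 at 3 h and -0.72 ± 0.09 at 24 h.

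Of the immunoproteasome subunits, only Psmb10 had separated from 0 h at 3 h. Psmb9 was at 90.8, 97.7 and 75 at 0 h, 76.2, 71.1 and 65.6 at 3 h, 40.9, 31.3 and 34.2 at 9 h and 32.9, 17.8 and 20.6 at 24 h. It overlapped 0 h at 3 h and was wholly lower at 9 h, with log2 fold changes of -0.31 ± 0.16, -1.31 ± 0.18 and -1.87 ± 0.20. Psmb10 was at 969, 941 and 968 at 0 h, 853, 836 and 805 at 3 h, 612, 573 and 708 at 9 h and 306, 466 and 443 at 24 h, with each time wholly below the one before. Psmb8 was at 121, 114 and 94 at 0 h, 96.7, 93 and 76.8 at 3 h, 72.7, 89.1 and 73.6 at 9 h and 68.6, 48.2 and 50.4 at 24 h. Psmb8 was thus still well above the floor at 24 h, with a log2 fold change of -0.97 ± 0.16. In the passage experiment the P10 EMM libraries had no count of it. The 2 tables were made separately, so levels cannot be compared directly between the experiments.

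H2-K1 was at 1534, 1699 and 1365 at 0 h, 1387, 1358 and 1361 at 3 h, 694, 767 and 788 at 9 h and 673, 596 and 590 at 24 h, and H2-D1 at 717, 766 and 685 at 0 h, 712, 662 and 688 at 3 h, 447, 503 and 423 at 9 h and 492, 405 and 465 at 24 h. Neither had separated from 0 h at 3 h and both were wholly lower at 9 h. B2m was at 603, 596 and 605 at 0 h, 883, 814 and 865 at 3 h, 1301, 1285 and 1246 at 9 h and 1894, 2099 and 1781 at 24 h, every time wholly above the one before, with log2 fold changes of 0.50 ± 0.06, 1.09 ± 0.06 and 1.68 ± 0.06. Nlrc5 was at 15.7, 19.7 and 14.6 at 0 h, 26.8, 22.8 and 20.7 at 3 h, 9.08, 14.2 and 16.6 at 9 h and 11.6, 12.6 and 8.22 at 24 h. It was wholly above 0 h at 3 h and wholly below at 24 h, with log2 fold changes of 0.47 ± 0.25 and -0.63 ± 0.29. Tapbp was between -0.05 ± 0.06 and 0.04 ± 0.06 as log2 fold change from 3 h to 24 h, with overlapping libraries at all times.

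**Figure D3:**
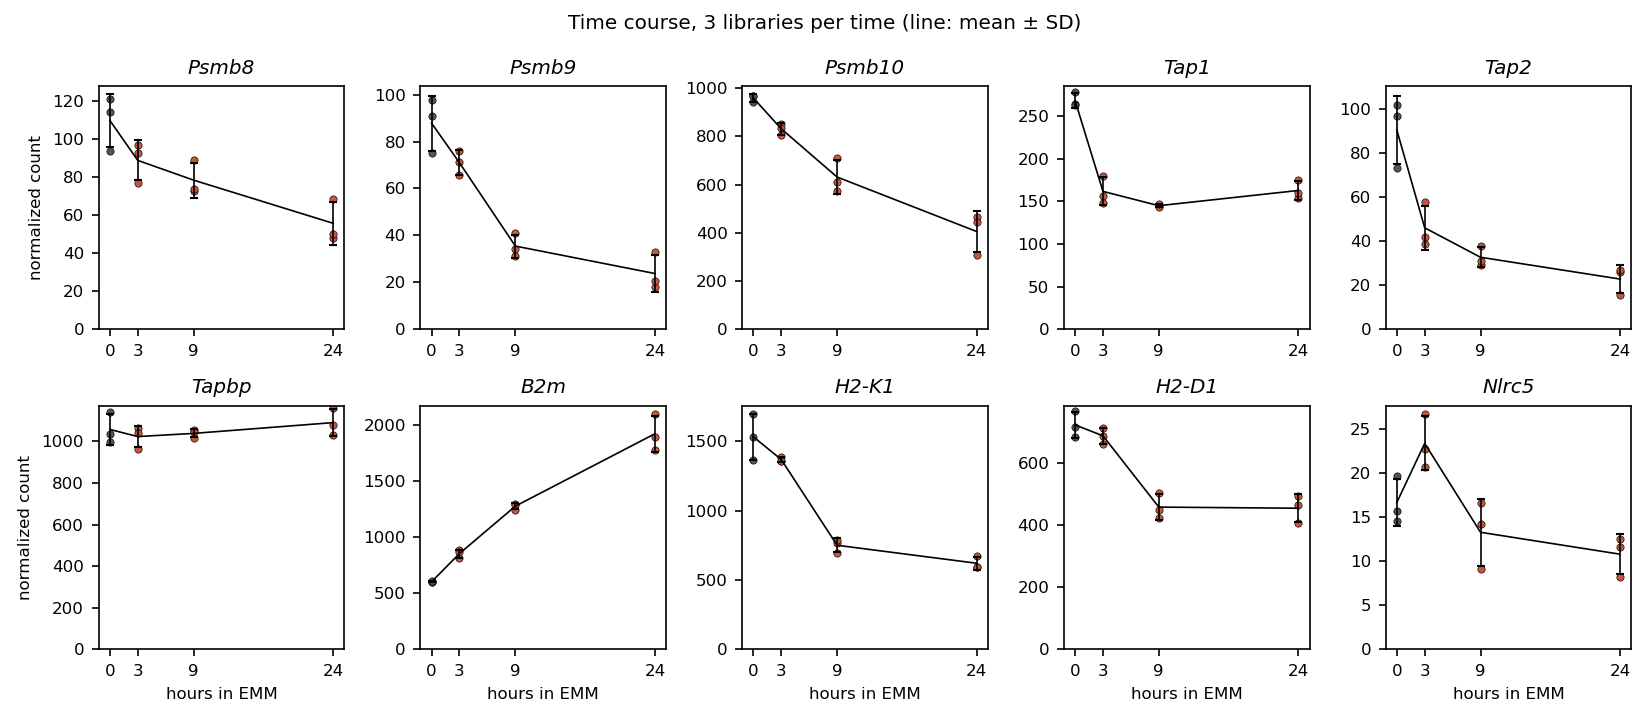
Normalized counts of the 10 genes (y axes, linear from 0) against hours in EMM (x axes), with 3 libraries per time as points and the mean ± SD as a line. B2m climbs at every time, Tap1 is at its lower level by 3 h, and Tapbp does not separate from 0 h.

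Genes of the same pathways that are not among the 10 were tested with edgeR's quasi-likelihood method, with adjusted p-values over all tested genes. Of 142 such genes in 10 lists, 119 were tested in the passage experiment and 115 in the time course. At an adjusted p under 0.01, 13 rose and 51 fell in P10 EMM against SL (18.7% and 18.7% of all tested genes did). In P20 EMM 4 rose and 46 fell (13.6% and 12.5%). In P10 2iL 17 rose and 57 fell (26.4% and 25.6%), and in P20 2iL 24 rose and 30 fell (21% and 23.2%). At 24 h of EMM 13 rose and 58 fell (21.8% and 22.2%), after 12 and 48 at 9 h (18.5% and 19.7%) and 14 and 26 at 3 h (16.3% and 18.2%). From P10 to P20, 6 rose and 9 fell in SL (3.16% and 2.85%), 19 and 23 in EMM (13.3% and 11.9%) and 27 and 8 in 2iL (13.1% and 15.2%). The EMM effect changed with passage upwards in 18 and downwards in 13 (8.28% and 6.43%), and the 2iL effect upwards in 24 and downwards in 7 (9.16% and 10.9%). For EMM against 2iL the counts were 32 and 28 at P10 (22.9% and 22.2%) and 21 and 39 at P20 (25.7% and 22.9%).

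Heavy chains other than H2-K1 and H2-D1, of the Q, T and M regions, counted 1 higher and 9 lower of 11 tested in P10 EMM, with a median log2 fold change of -2.5. H2-Q7 (Qa-2) fell by 3.62 ± 0.28 on the log2 scale (adjusted p = 7.9e-09), from 174 ± 32.3 to 14.3 ± 5.14 normalized counts. H2-Bl changed by -3.28 ± 0.25 and H2-Q4 by -2.06 ± 0.18. In P20 EMM the list counted 1 higher and 4 lower of 11 tested, where H2-Q4 was the riser at 0.63 ± 0.16 (adjusted p = 0.0041). The change of the EMM effect between passages passed for 7 of 11 upwards and 1 downwards, against 8.28% and 6.43% of all tested genes, with 2.79 ± 0.36 for H2-Q7. The gene that went down was H2-M5, with -2.10 ± 0.14. In P10 2iL the list counted 1 higher and 8 lower of 11 tested, and at 24 h of EMM 0 higher and 7 lower of 10 tested.

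Of the 11 other 20S core subunits, none rose and 2 fell in P10 EMM, a share close to the 18.7% of all tested genes that fell, with a median log2 fold change of -0.17. In P20 EMM 5 fell (12.5% of all tested genes, with a list median -0.35), and at 24 h of EMM 8 of the 11 fell (22.2% of all tested genes, with a list median -0.26), with 5 of 9 activator and assembly genes. In P10 2iL 6 of the core subunits fell (25.6% of all tested genes), with Psmb6 at -0.65 ± 0.11 (adjusted p = 3.4e-05) and Psmb7 at -0.51 ± 0.12 (adjusted p = 0.0017) among the catalytic counterparts of the immunoproteasome. Psmb6 was the 1 counterpart that fell in P20 EMM, at -0.38 ± 0.10 (adjusted p = 0.0081), and at 24 h of EMM, at -0.23 ± 0.05 (adjusted p = 0.00071). Psme1 and Psme2, the interferon-induced subunits of the PA28 activator, fell in P10 EMM by 0.60 ± 0.10 and 0.95 ± 0.13 on the log2 scale (adjusted p = 7e-05 and 1.2e-05). In P20 2iL Psme1 rose instead, by 0.53 ± 0.10 (adjusted p = 0.00019).

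Peptide trimming and loading genes counted 3 higher and 4 lower of 10 tested in P10 EMM, against 18.7% and 18.7% of all tested genes. Erap1, the aminopeptidase that trims peptides in the endoplasmic reticulum, fell from 271 ± 59.7 to 70.6 ± 14 normalized counts in P10 EMM (-1.94 ± 0.18, adjusted p = 8.8e-08). In P20 EMM it did not pass, at -0.42 ± 0.17 (adjusted p = 0.054). Tapbpl, a tapasin relative, was lower in EMM at both passages, at -1.05 ± 0.24 and -1.33 ± 0.23 (adjusted p = 0.0013 and 0.00016). At 3 h of EMM 5 of the 10 rose and 1 fell, at 9 h 4 and 2, and at 24 h 2 and 5, where the median was -0.23. Of all tested genes 16.3% rose and 18.2% fell at 3 h, 18.5% and 19.7% at 9 h and 21.8% and 22.2% at 24 h.

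Interferon-induced genes counted 3 higher and 21 lower of 31 tested in P10 EMM (18.7% and 18.7% of all tested genes) and 0 higher and 18 lower of 31 tested in P20 EMM (13.6% and 12.5%). The division was less one-sided in 2iL, with 3 higher and 17 lower at P10 (26.4% and 25.6%) and 4 higher and 10 lower at P20 (21% and 23.2%). The guanylate-binding protein Gbp2 was at 962 ± 212 normalized counts in P10 SL and 4.98 ± 2.09 in P10 EMM, a log2 fold change of -7.41 ± 0.32 (adjusted p = 5.5e-12). Its relative Gbp3 had 546 counts in P10 SL and 2 in P10 EMM, a ratio of 218 after scaling to library size with a 95% interval of 60 to 1800. Gbp2 was at 106 ± 29.5 in P20 EMM, and the EMM effect changed with passage by 5.24 ± 0.42 (adjusted p = 7.7e-08). The immunity-related GTPases Igtp and Irgm2 were lower in EMM at both passages, with -2.86 ± 0.36 and -2.92 ± 0.32 for Irgm2. In the other direction, Xaf1 and Ddx58 (RIG-I) rose in P10 EMM, by 2.41 ± 0.16 and 1.86 ± 0.12 (adjusted p = 9.5e-10 and 7.6e-10). Neither passed in P20 EMM, with adjusted p = 0.019 and 0.93. At 24 h of EMM 4 rose and 17 of 29 fell, and Xaf1 was again a riser, at 2.10 ± 0.07.

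Receptors and signal genes of the interferon pathway counted 3 higher and 5 lower of 16 tested in P10 EMM, where 18.7% of all tested genes rose and 18.7% fell. Irf1, a transcription factor that interferon gamma induces, fell in all 4 comparisons of EMM or 2iL with SL, by 1.42 ± 0.10 on the log2 scale in P10 EMM (adjusted p = 2.9e-09) and by 0.45 ± 0.10 in P20 EMM (adjusted p = 0.0011). The receptor chain Ifngr1 changed by -1.16 ± 0.25 in P10 EMM (adjusted p = 0.00094) and did not pass in P20 EMM, at 0.22 ± 0.22. Of the factors that bind class I promoters, Rfxap, a subunit of the RFX complex with which Nlrc5 acts, changed by -1.60 ± 0.17 in P10 EMM (adjusted p = 3.3e-07). Its partner Rfx5 rose in P10 2iL by 1.23 ± 0.11 (adjusted p = 1.8e-08). Promoter factors as a list counted 1 higher and 6 lower of 14 tested in P10 EMM, proteasome activator and assembly genes 0 higher and 2 lower of 9 tested, class I-like molecules 2 higher and 2 lower of 8 tested and class II genes 0 higher and 0 lower of 6 tested. These P10 EMM counts stand against 18.7% higher and 18.7% lower over all tested genes. In P10 2iL 6 of the 9 activator and assembly genes fell and none rose (25.6% of all tested genes fell), and at 24 h of EMM class II genes counted 0 higher and 3 lower of 5 tested (22.2% of all tested genes fell). The NKG2D ligand Raet1d fell in both media at P10, and another, Ulbp1, rose in P10 EMM by 1.71 ± 0.18 (adjusted p = 3e-07). In the time course Ulbp1 fell instead, from 275 ± 21.8 normalized counts at 0 h to 177 ± 4.88 at 24 h (-0.63 ± 0.10, adjusted p = 6.4e-05). Of 8 class I-like molecules none rose there, and 7 fell at 9 h and 6 at 24 h (19.7% and 22.2% of all tested genes fell).

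**Figure D4:**
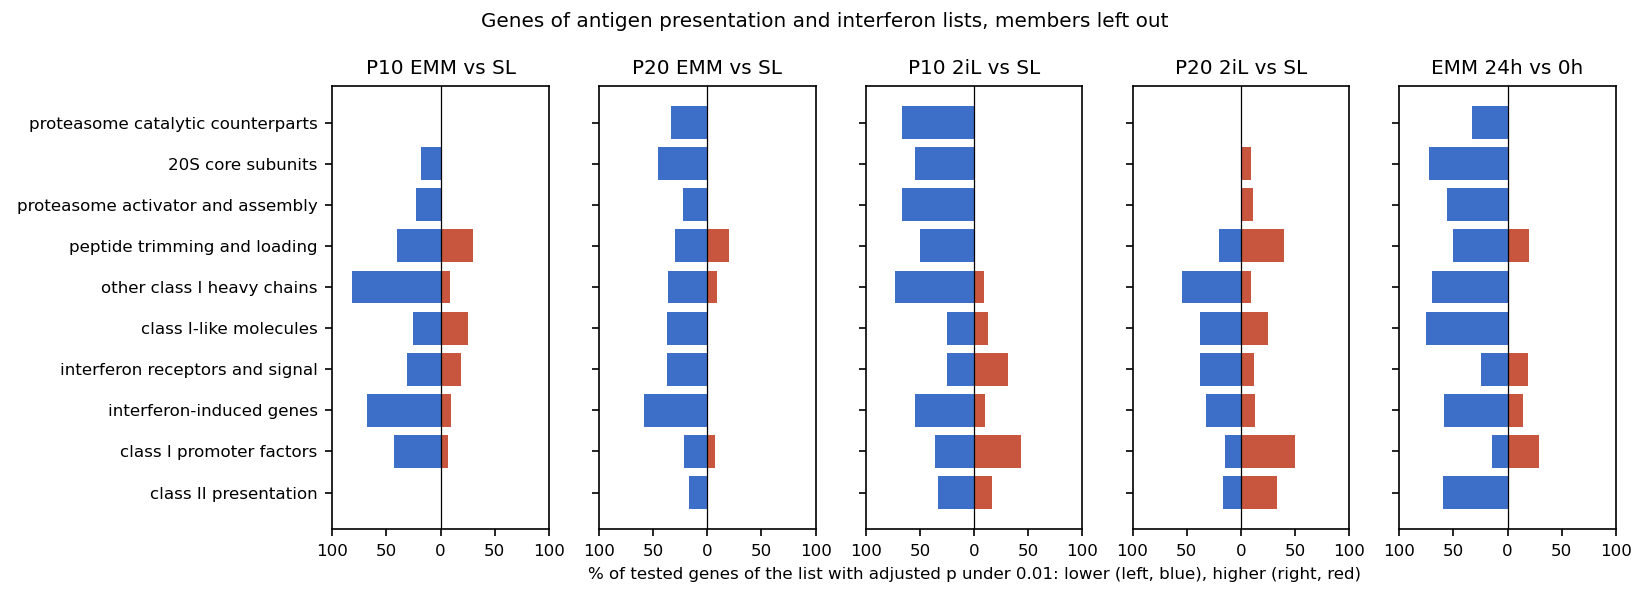
Share of the tested genes of each list (rows, the 10 described genes left out) with an adjusted p under 0.01, lower to the left and higher to the right, in 5 comparisons (panels). Other class I heavy chains (9 of 11 lower) and interferon-induced genes (21 of 31 lower) have the longest bars to the left in P10 EMM.

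Genes that lie between the described genes were also counted. Among 63 tested genes on chromosome 17 between Tapbp and H2-D1 that are neither among the 10 nor on a list, 18 rose and 6 fell in P10 EMM, with a median log2 fold change of 0.21. In P20 EMM 8 rose and 3 fell, with a median of 0.02. Over all tested genes 18.7% rose and 18.7% fell in P10 EMM, and 13.6% and 12.5% in P20 EMM. In P10 2iL 13 of the 63 rose and 14 fell (26.4% and 25.6% of all tested genes). Of 66 tested in the time course 11 rose and 13 fell at 9 h (18.5% and 19.7%) and 11 and 10 at 24 h (21.8% and 22.2%).

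**Figure D5:**
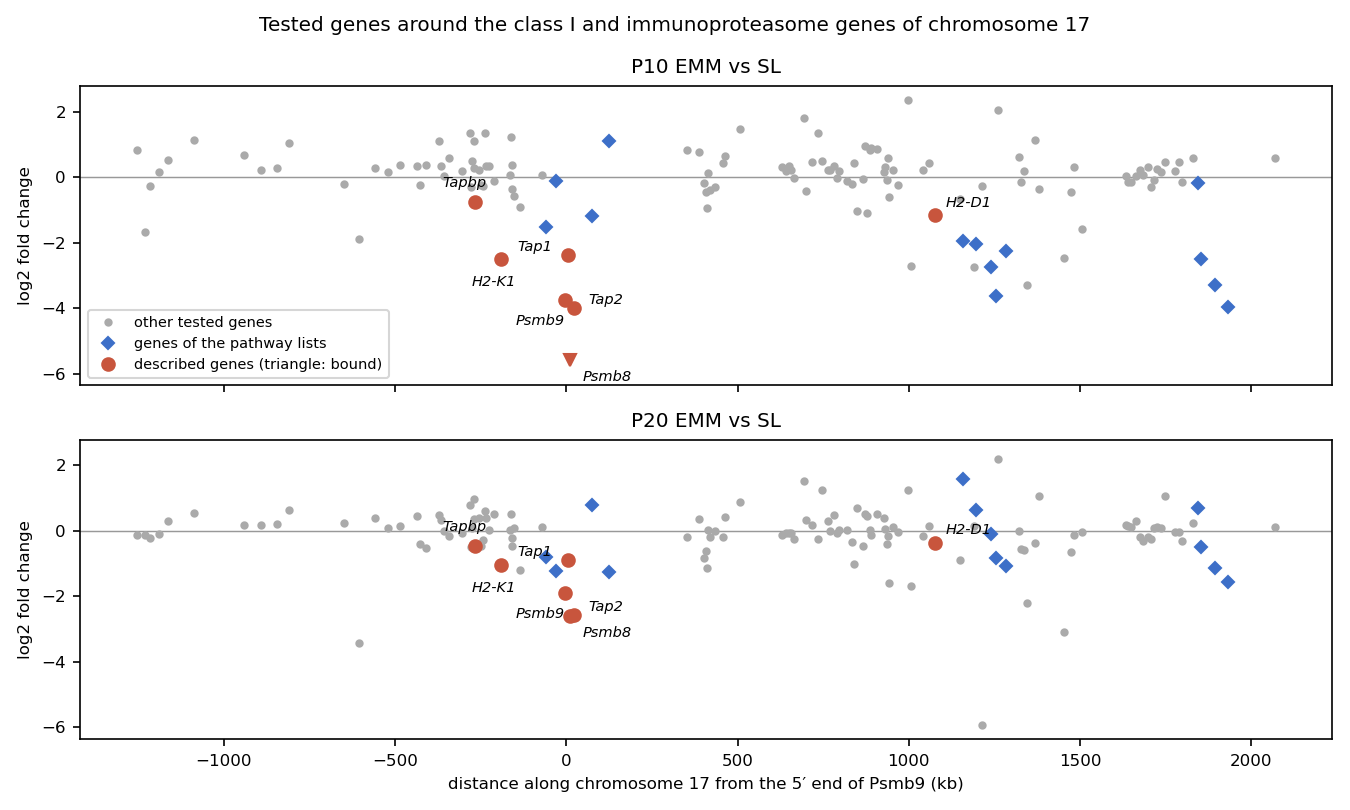
Log2 fold change of EMM against Serum/LIF at P10 and P20 (y axes) for tested genes along chromosome 17 by distance in kb from the 5′ end of Psmb9 (x axis). The described genes (red, the triangle a bound) lie below 0, and the 63 other genes between them and on no list (grey, with the rest of the window) have a median of 0.21 at P10 and 0.02 at P20.

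Across the 18 passage libraries, 8 of the 10 genes varied together, with a Pearson correlation of each with the mean of the other 9 of 0.78 to 0.95, and B2m (0.13) and Tapbp (0.12) did not. The genes outside the 10 whose log2 CPM followed their mean most closely were Tpm1 (0.979), Stard10 (0.978), Krt18 (0.971), Snapc3 (0.97) and Gsn (0.969). These are descriptions over 18 libraries in 6 groups, and libraries of a group share their culture medium and passage. In the 12 time course libraries the closest were Cnga3 (0.984), Alox5ap (0.978), Crip2 (0.976), Pou3f1 (0.975) and Mfng (0.973), and B2m ran against the mean of the other 9 (-0.96). Krt18 is also a trophectoderm marker. The sum of the 7 trophectoderm markers was 529 to 617 CPM in P10 SL, 25.7 to 43 in P10 EMM and 71.8 to 81.6 in P10 2iL, with 0, 1 and 1 of the 7 at 0 counts. The sum of 8 fibroblast markers was 147 to 175 CPM in P10 SL and 21 to 24.7 in P10 EMM, with 0 and 2 of the 8 at 0 counts. In P10 2iL it was 5.58 to 7.52, with 1 of the 8 at 0 counts. The markers of a sum did not all move together. In P10 2iL against SL, the 6 tested trophectoderm markers had log2 fold changes of -6.12 to 3.95, with 2 passing higher and 3 lower. In P10 EMM 4 trophectoderm markers passed lower and 0 higher, and of 6 tested fibroblast markers 5 passed lower and 1 higher. The 4 tested neurectoderm markers ranged from -3.19 to 3.71 in P10 EMM. At P20 the mean fibroblast sum was 320 CPM in SL, higher than at P10 whereas 9 of the 10 genes were lower, 13.7 in EMM and 7.88 in 2iL, and the mean trophectoderm sum was 312, 41.8 and 136. Endothelium and mesoderm markers had their highest mean in P10 2iL, where for mesoderm the libraries overlapped those of SL. In P10 SL, EMM and 2iL the mean sums were 25.7, 18.6 and 38.7 CPM for endothelium, 48.6, 17 and 57.5 for mesoderm, 12, 6.41 and 3.48 for endoderm and 188, 95.1 and 48.2 for neurectoderm. In the time course the fibroblast sum went from 65.1 to 68.4 CPM at 0 h to 46 to 53.8 at 24 h and the mean endothelium sum went from 23.5 to 18.1, while the trophectoderm sum went the other way, from 143 to 157 CPM at 0 h to 263 to 274 at 24 h. The endoderm sum also rose, from 13.4 to 14.4 CPM at 0 h to 24 to 24.7 at 24 h. The part of these cell types in the levels of the 10 genes was not tested.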

How the data were processed

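RNA-seq of E14tg2a cells was analysed from the authors' gene tables. The time course table holds whole read counts per gene (STAR and featureCounts on mm10 per the labels; HTSeq in the methods of the study, which describe counts in exons and in introns, and which of these the table holds was not given in the sources used here). The authors deposited expected counts per gene for the passage experiment (STAR and Salmon on mm10 per the labels), of which 9.982% were not whole, and these were rounded here. Kits of the NEBNext Ultra II family were used after depletion of ribosomal RNA. The submitters' processing notes also name DESeq2. Libraries held 6944904 to 27912928 counts in the passage experiment and 24074132 to 35301962 in the time course.

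Groups followed the labels, with 3 libraries each, which the study describes as independent experiments. Genes kept by filterByExpr (16054 and 16049) were scaled by TMM and fitted with edgeR 4.0.16 (R 4.3.3) quasi-likelihood models holding all groups of an experiment, without covariates. P-values were adjusted by Benjamini-Hochberg over all tested genes, and passing means an adjusted p under 0.01. The procedure was tested on simulated data. A floor of 3 counts per library set bounds for groups at 0. Correlations used log2 CPM with a prior count of 2.

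The 10 genes and the pathway and marker lists were chosen with earlier results of these data known, so the 10 genes carry no test. Other genes are named by a rule: Psmb5, Psmb6, Psmb7, Psme1, Psme2, Ifngr1 and Irf1 always (another gene of this set is not reported here), up to 2 rises and 2 falls per list and media comparison with a log2 fold change beyond 1 and 50 or more normalized counts on average, the 5 genes most like the members' mean, and genes between the members on chromosome 17. A gene named by the rule in 1 comparison may be given in others.

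Same-numbered libraries of 2iL at P20 and P10 deviated together from their group means (correlations 0.299, 0.134 and 0.224), whereas in every other comparison at least 1 of the 3 was 0.059 or lower, and the pairing comes from this check alone. Alternatives were another normalization (DESeq2 1.42.0 size factors, library totals), other filters and thresholds, DESeq2's test, 2-group fits, a replicate block, and each library left out.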

Additional observations from a re-analysis of the deposited data

Results flagged for a closer look

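Among pathway genes, the effect of EMM against SL differed between passages by edgeR's quasi-likelihood test of the difference itself (adjusted p under 0.01). As P20 minus P10 on the log2 scale, the difference was 5.24 for Gbp2, 2.79 for H2-Q7, 2.69 for H2-Q4, 2.14 for H2-Bl, 1.51 for Erap1, 1.38 for Ifngr1, 1.25 for Rfxap and 0.96 for Irf1, all of which were less depleted in EMM at P20 or no longer depleted. It was -2.89 for Xaf1, -2.1 for H2-M5, -1.84 for Ddx58 and -1.48 for Ulbp1, all of which were higher than in SL in P10 EMM and stood closer to SL, or below it, at P20.

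The effect of 2iL against SL differed by 1.08 for Psme2, 0.77 for Psme1, 0.64 for Psmb7 and 0.6 for Psmb6. It differed by -0.93 for Ulbp1, -0.66 for Ddx58 and -0.6 for Rfx5.

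Some of the 10 genes moved in opposite directions between passages in different media, with every P20 library on one side of every P10 library, and these differences were not tested. Over all tested genes, 20% to 30.6% were wholly higher at P20 in a medium and 20.4% to 26.3% wholly lower. How many of all genes moved in opposite directions was not counted. H2-K1 went up in EMM and in 2iL and down in SL, a difference in log2 fold change of 1.46 and 1.9. For H2-D1 the differences were 0.81 and 1.23. Tap1 differed by 1.48 between EMM and SL, and Psmb10 by 2.22 between 2iL and SL. Psmb8 was at least 3.92-fold higher at P20 in EMM and lower at P20 in SL. Nlrc5 was above 0 h at 3 h of EMM and below it at 24 h, a difference of -1.1 that was not tested either. With 3 libraries a group, no search for outlying libraries was made.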

How the results depend on the processing

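Most summaries did not move: 342 of 394 counts of pathway genes and medians of the 10 genes under an alternative stayed within 1.5 times the count or within the spread between replicates, 51 moved and 1 reversed, and of 1698 single-gene values 1615 stayed, 82 moved and 1 reversed. Low counts of Psmb8, Psmb9, Tap2 and Nlrc5 limit the precision of their values, and intervals cover counting error only.

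A filter of 10 counts in every library leaves out low genes by its construction. With it, the medians of the 10 genes against SL were -1.24 (P10 EMM), -0.51 (P20 EMM), -2.68 (P10 2iL) and -0.46 (P20 2iL), 1.18 and 0.29 for EMM against 2iL at P10 and P20, and -0.98 at 24 h. EMM at P20 against P10 reversed to -0.17, 42 pathway genes passed in P10 EMM, and 19 changed in EMM effect with passage. Without a filter, 29 pathway genes passed for SL at P20 against P10. With library totals alone the median was -1.07 in P20 EMM and -0.25 at 3 h.

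With a log2 fold change beyond 1 also required, 37, 22, 41 and 30 pathway genes passed in P10 EMM, P20 EMM, P10 2iL and P20 2iL against SL, 29 and 32 in EMM against 2iL at P10 and P20, 2, 23 and 11 between passages in SL, EMM and 2iL, 10 for the passage change of the 2iL effect, and 10, 15 and 18 at 3, 9 and 24 h. At an adjusted p under 0.05, 24 passed between passages in SL and 56 in 2iL, and 52 for the change of the 2iL effect. In fits of 2 groups alone, 38 passed for P10 EMM against 2iL, 31 for SL and 13 for 2iL between passages, and the EMM median between passages was 0.32. The cause of these shifts was not tested. In place of H2-D1 (1.13 in P20 EMM against 2iL), the sum of all heavy chains gave -0.06 ± 0.07, within its error of 0, and 0.93 ± 0.10 without H2-M5, an alternative chosen after seeing the data.

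Leaving out 1 library gave medians of -3.26 to -2.59 (P10 2iL against SL), 0.62 to 1.29 (P10 EMM against 2iL), 0.31 to 0.8 and 0.44 to 0.81 (P20 against P10 in 2iL and EMM) and -0.22 to -0.14 (3 h). Between passages in SL, 15 pathway genes passed and 6 to 12 did without 1 library, with 9 or fewer without P10 SL replicate 1 or 2 or any P20 SL replicate. The 2iL effect changed with passage for 31, and for 16 to 38 without 1 library, with 20 or fewer without P10 2iL replicate 2 or 3, P10 SL replicate 1, P20 2iL replicate 1 or P20 SL replicate 2 or 3.

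A replicate block moved no count of pathway genes by over 1.5 times: 62 pathway genes passed in P10 EMM against SL, 72 at 24 h, and 33 for 2iL between passages. With the numbers of the description field as the block in the time course, the median at 24 h was -0.75. Outside 2iL between passages, same-numbered libraries correlated by -0.165 to 0.207, and they share only a number.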
